A study of Rattus norvegicus with 30 samples.

Results

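The 1191 regions described here were the highest methylated-DNA peaks among those found in every library of the study. Peaks of the 30 libraries on chromosomes 1 to 20 were merged wherever they shared at least 1 bp, which gave 604866 regions. A peak was called in all 30 libraries at 11914 of them, and the members were the top 10% of these by mean height. Height, as used below, was the highest pileup of DNA fragments in a region per 1000000 filtered fragments of that library. The heights therefore chose the members, and levels of height are given as a description without a test.

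The libraries came from methylated DNA immunoprecipitation and sequencing (meDIP-seq) of the prefrontal cortex of Sprague-Dawley rats at postnatal day 22. CON offspring came from dams with free access to a pelleted control diet, PF (pair-fed) offspring from dams whose rations of an ethanol-free liquid diet, with maltose-dextrin as the calorie source instead, were matched to the intake of PAE dams, and PAE (prenatal alcohol exposed) offspring from dams with free access to a liquid diet with 36% of its calories from ethanol (6.37% v/v). The diets ran from gestation day 1 to 21. Each group held 10 libraries from 5 dams, with 1 offspring labelled female and 1 labelled male per dam, and the study asked whether prefrontal methylation differed between these groups and whether such differences depended on sex. Whole tissue was used, so neurons and glia were not separated.

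In meDIP, an antibody to 5-methylcytosine pulls down single-stranded DNA fragments, and fragments with many methylated CpG sites are recovered best. Most CpG methylation in mammalian genomes lies outside the regulatory regions of active genes, and a large share of it lies in repeats such as transposons, satellites and arrays of duplicated genes, where methylation is known to keep the sequence silent. Where an assembly holds fewer copies of such a sequence than the animal, fragments of several copies pile up at a single place. A tall peak can therefore stand for dense methylation, for many CpG sites or for many copies, and these cannot be told apart in pileups without an input library. Gene names were not analysed here, because the annotation at hand was of GRCr8, another assembly than the Rn6 assembly of the peak files.

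Libraries held 11548314 to 16555049 filtered fragments. The sex chromosomes split the libraries otherwise than the sex labels did. Few chromosome Y peaks (4 to 11) and many chromosome X peaks (2.65% to 3.14% of all) marked 7 libraries, whereas the other 23 had 38 to 87 on Y and 0.774% to 1.15% on X. The 7 comprised 2 labelled female and 5 labelled male, so that 18 of 30 libraries went against their label. All 7 were sequenced on lanes 5 (5 libraries) and 7 (2 libraries), and 4 of them were PF, 2 CON and 1 PAE. Results on labelled sex are therefore results on a label. Group and dam were taken from the labels of the same libraries, and whether they hold for each library was not tested.

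Members spanned almost 3 orders of magnitude in mean height, from 2.76 to 1874.31, with a median of 4.43 and quartiles of 3.35 and 8.34. The other 10723 regions called in all libraries had a median of 1.29. Most members lay close to the threshold: 677 of 1191 (56.8%) had a mean under 5 and 252 (21.2%) a mean over 10. The regions just inside the threshold were chr1:54846569-54847673 and chr6:17835085-17835992, both at 2.76. Just outside were chr15:31985968-31986731 at 2.76 and chr12:138370-138953 at 2.75. A small number of regions carried much of the signal: 22 members had a mean over 100, 3 a mean over 1000, and the 3 highest held 22.3%, the 10 highest 34.8% and the 100 highest 65.3% of the members' summed mean height. Per library, the members held between 10.7% and 17.2% of the summed height of all 352026 regions with a peak in at least 3 libraries.

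**Figure D1:**
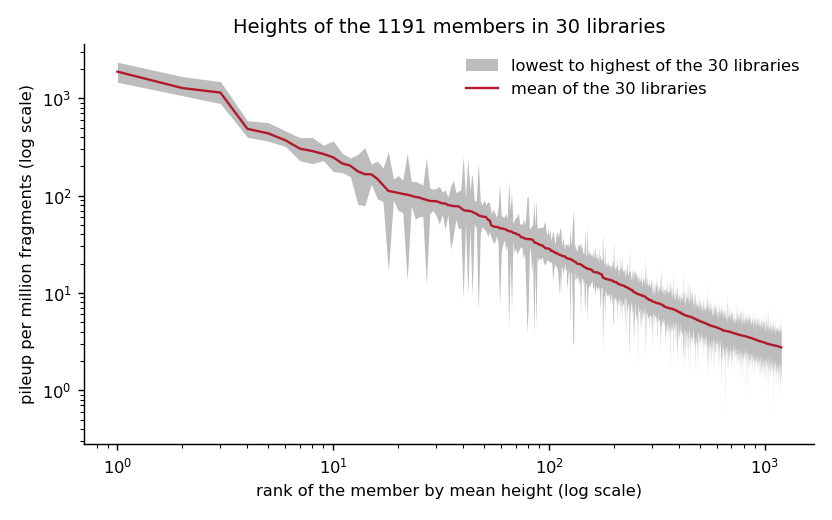
Mean height of each member (red line, pileup per 1000000 filtered fragments, log scale) against its rank (log scale), with the lowest and highest of the 30 libraries as a grey band. The curve starts at 1874 and ends at 2.76, and single members between ranks 10 and 100 stand out by a band that is far wider than that of their neighbours.

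The highest member, chr13:33503434-33505314, was 1881 bp long. Its height was 1459 in the lowest, 1867 in the median and 2346 in the highest library (mean 1874 ± 198, SD, n = 30), so that a mean of 0.187% of all filtered fragments covered its tallest base. The raw pileup had a median of 26186.5 fragments. A further member, chr13:33508429-33508732, began close downstream and held rank 4, at 485 ± 50.7 (SD, n = 30), and the heights of both moved together over the 30 libraries (r = 0.88, relative to each library's median member).

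Ranks 2 and 3 were neighbours on chromosome 1. The member chr1:180644618-180645183 had heights between 1063 and 1668 (mean 1271 ± 146, SD, n = 30). Next to it, chr1:180645747-180646328 lay between 881 and 1481 (mean 1143 ± 143, SD, n = 30). Despite their closeness, their relative heights followed each other only in part (r = 0.36 over 30 libraries). Ranks 7 to 10 lay in the same stretch of chromosome 1, at chr1:180858048-180858531 (304 ± 39.4), chr1:180852221-180852935 (286 ± 48.4), chr1:180703345-180703834 (267 ± 28.5) and chr1:180705643-180706247 (247 ± 41.6). Rank 5 was chr3:41544-42155, close to the first base of its chromosome in the assembly, at 435 ± 63.0. Rank 6 was chr7:22328384-22328841 at 370 ± 36.7 (all SD, n = 30).

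Apart from height, the members differed in shape from the other regions called in all libraries. They were shorter, with a median length of 778 bp (278 to 3110 bp) against 900 bp. The position of the tallest base was far more constant, with a median interquartile range over libraries of 13.5 bp against 67 bp. Lengths over 2000 bp were nevertheless found in 3.78% of members and 1.74% of the others. The longest was chr7:20160216-20163325, at 3110 bp and a mean height of 3.44. More fragments lay behind the members (median raw pileup 60 against 17.5), so these comparisons are not independent of the rule.

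Members were unevenly spread over the genome. Chromosome 1 held 273 of them (22.9%, against 11.4% of the other regions) and 39.5% of their summed height. Chromosomes 16 (6.13% against 3.40%), 19 (4.79% against 2.98%) and 9 (7.14% against 5.05%) also held larger shares of the members than of the others. Chromosome 5 held 22 members (1.85% against 6.34%) and chromosome 10 held 16 (1.34% against 4.50%). Chromosome 13 held 53 members and 17.2% of the summed height, most of it in its highest member. Near the ends of the called part of each chromosome the share of members was larger: 5.04% lay within 1 Mb of the first or last called position, against 2.20% of the others. These are shares of regions, which are not independent of each other, and were not tested.

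**Figure D2:**
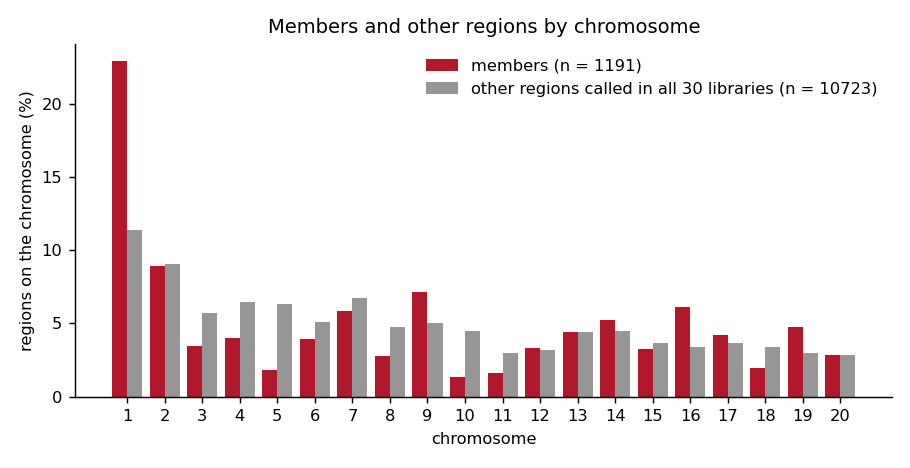
Percent of the 1191 members (red) and of the other 10723 regions called in all libraries (grey) on each chromosome. The red bar of chromosome 1 reaches 22.9% beside a grey bar of 11.4%, and the red bars of chromosomes 5 and 10 stay below 2%.

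Part of this unevenness lay in dense groups. Joining members whose gaps were at most 100 kb left 425 single members and 140 groups of at least 2, which held 766 members (64.3%). The other regions were grouped to a like degree (62.4%), although they were many more. The largest group, chr1:180491724-181332501, held 78 members within 840778 bp and 30.1% of the summed height of all members, with mean heights between 3.09 and 1271. Only 6 other regions called in all libraries lay inside it. The next were chr16:21675999-22139856 with 40 members (median height 5.56, highest 39.2) and chr13:33448799-33820467 with 32 members, which held 16.8% of the summed height. Within these groups on chromosomes 1, 16 and 13 the relative heights of member pairs correlated with a median r of 0.53, 0.29 and 0.45. Over all pairs of members the median r was 0.01 (30 libraries). Among the 15 groups of at least 10 members, the median r ran from 0.03 to 0.79.

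The ratio of the highest to the lowest library had a median of 2.37 over the members (quartiles 2.03 and 2.85), against 2.79 for the other regions. The coefficient of variation (CV) over the 30 libraries had a median of 21.0% (range 9.62% to 103%), against 24.9% for the other regions, whose raw pileups were lower. The least variable member was chr20:40884557-40884990, at 23.7 ± 2.29 (CV 9.62%). A small subset behaved differently: 28 members (2.35%) had a CV over 50%, against 10 of the others (0.0933%), and in 21 members the highest library was at least 10 times the lowest, against 2 of the others.

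The most variable member, chr20:27460721-27461808 (CV 103%), took on 2 ranges of height that did not touch. In 17 libraries it lay between 3.92 and 6.88, and in 13 libraries between 53.5 and 95.5, with a step of 7.78-fold and no library in between. The high libraries were 3 CON, 4 PF and 6 PAE, and 6 of them were labelled female and 7 male. Both littermates were high in 2 dams and both low in 4, whereas in 9 dams 1 littermate was high and 1 low. A neighbouring member, chr20:27462583-27463290, was tall in every library (42.3 to 83.6), and its relative height moved with that of the first over the 30 libraries (r = 0.95).

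At chr18:71139123-71140041 there were also 2 separate ranges. The height was 1.58 to 2.79 in 13 libraries and 6.39 to 13.5 in 17, a step of 2.29-fold. The high libraries were 6 CON, 7 PF and 4 PAE. Among the 15 dams, 4 had both littermates high, 2 both low and 9 were split. A step of at least 2-fold was found in these 2 members and in 1 of the other 10723 regions, and a step of at least 1.5-fold in 13 members and 10 others.

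**Figure D3:**
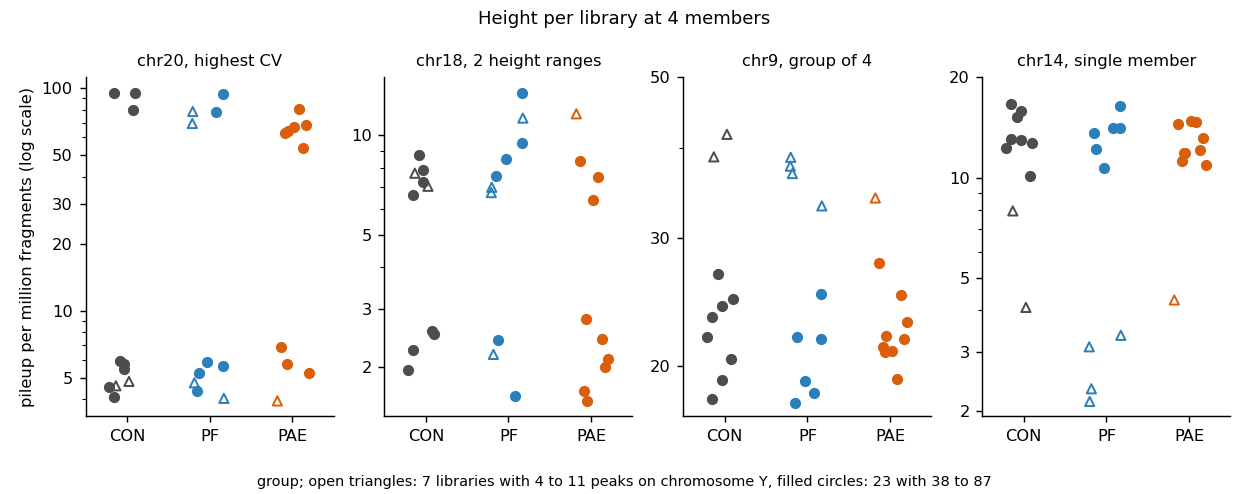
Height per library (pileup per 1000000 filtered fragments, log scale) in the CON, PF and PAE groups at 4 members, where open triangles mark the 7 libraries with 4 to 11 peaks on chromosome Y and filled circles the 23 with 38 to 87. At the members on chromosomes 20 and 18 all groups split into a high and a low range, and at those on chromosomes 9 (chr9:40522264-40522824) and 14 (chr14:95687132-95687647) the triangles stand apart from the circles in every group.

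A total of 5 members separated the 7 libraries with few peaks on chromosome Y from the other 23 without overlap. Of these, 4 lay side by side on chromosome 9 and were higher in the 7 libraries. At chr9:40522264-40522824 the 7 libraries lay between 33.3 and 41.7 (median 37.7) and the other 23 between 17.8 and 27.8 (median 21.9), 1.73-fold between medians. The neighbours chr9:40514166-40514662, chr9:40517094-40518358 and chr9:40523982-40524524 had ratios of medians of 1.85, 1.58 and 1.85. The remaining one, chr14:95687132-95687647, went the other way: it lay between 2.14 and 7.95 (median 3.37) in the 7 libraries and between 10.1 and 16.6 (median 13.0) in the 23. Among all 11914 regions called in every library, 7 (0.0588%) were higher and 1 (0.00839%) lower without overlap, so that members made up 4 of the 7 and the only lower one. The labelled sexes overlapped at all 5, for example between 3.11 and 16.4 in libraries labelled female and between 2.14 and 16.6 in those labelled male at the member on chromosome 14. The 7 libraries were grouped by their chromosome Y peaks and not by a label, and no test was made.

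Other variable members moved together although they lay on different chromosomes. Linking members with a correlation of relative heights of at least 0.9 over the 30 libraries gave 18 sets with 78 members, and 7 of the sets, with 53 members, spanned more than 1 chromosome. These sets were formed after the values had been seen and carry no test, and all heights share their library's depth and antibody enrichment. The largest set had 18 members on chromosomes 1, 5, 6 and 14, with CVs between 46.2% and 79.3% (pairwise r 0.720 to 0.997, median 0.868).

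In this set, chr1:11906564-11906988 ranged from 8.61 to 251 (mean 71.2). It was highest in the male of dam C45 (CON, 251), the female of dam PF24 (PF, 186) and the female of dam E6 (PAE, 184), as labelled, and lowest in the males of dams PF26 (8.61) and PF27 (8.70). The member chr14:46565122-46565961 ranged from 6.48 in the male of dam PF26 to 220 in the male of dam C45 (r = 0.996 with the former). On chromosome 5, chr5:91132055-91132639 ranged from 4.29 to 140 and followed the same order less closely (r = 0.90). Here the male of dam PF26 had 27.7, well above the male of dam PF27 at 4.29. Every group held both high and low libraries: at the member on chromosome 1 the CON libraries had 12.1, 59.1 and 251 as lowest, median and highest, the PF libraries 8.61, 88.7 and 186, and the PAE libraries 18.5, 38.3 and 184. Littermates could lie far apart, as in dam C45, whose labelled female had 12.1.

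**Figure D4:**
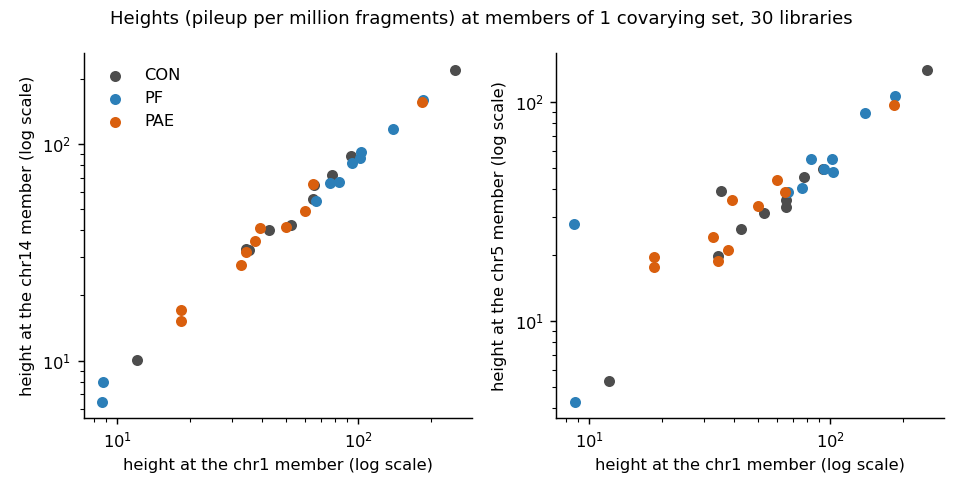
Height of a member on chromosome 14 (left) and of one on chromosome 5 (right) against that of a member on chromosome 1 in the same library, in pileup per 1000000 filtered fragments on log scales, for 30 libraries in 3 groups. The points of chromosome 14 form 1 line over the full range of 8.61 to 251, and those of chromosome 5 scatter more, with 1 PF library at 27.7 standing clear of the line.

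The next set joined 14 members on chromosomes 1, 12, 13 and 18 with low spread (CVs of 16.2% to 21.6%), the one at rank 8 included. It was highest in the labelled female of dam PF27. Another set of 12 members lay on 7 chromosomes, with mean heights of 3.58 to 9.90, and was lowest in the labelled females of dams E2, C45 and PF27. These orders are of heights relative to each library's median member. They differed between sets, and the library that was highest in one was among the lowest in another. The 3 lowest libraries of the set of 12 had median member heights of 5.45, 5.23 and 5.17. Its 3 highest, the labelled male of dam E3 and the labelled females of dams E9 and E6, had 3.87, 4.17 and 3.92. In the set of 14 the 3 highest libraries, the labelled females of dams PF27, C41 and C45, had 5.17, 4.94 and 5.23. Its 3 lowest, the labelled female of dam C44 and the labelled males of dams PF22 and C41, had 4.13, 4.18 and 4.58. Relative height subtracts this same median, so part of an inverse order is built in and the orders of both sets depend on it. A link of either set with library enrichment was not tested. Within chromosome 9, chr9:1433507-1434138 (1.63 to 14.8), chr9:8477782-8478954 (3.40 to 18.9) and chr9:12374885-12375576 (5.14 to 35.0) formed a set over a long distance, with the highest value of each in the labelled female of dam E2.

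The main question of the study was whether methylation differed between the groups, which are taken here as labelled. Contrasts between the equally sized groups do not use the mean height that chose the members, and were fitted with limma on log2 height over all 352026 regions, with labelled sex and lane as covariates and Benjamini-Hochberg adjustment over all regions. Between PAE and CON, 0 of 1191 members passed an adjusted p of 0.05, against 0.000284% of all regions (1 region). Between PAE and PF and between PF and CON, 0 members and 0% of all regions passed. The study modelled reads within each peak with edgeR, after correction for batch, and reported regions that passed an adjusted p of 0.05. Its measure and model differ from those used here, so the counts are not set against each other. At an unadjusted p under 0.05 the members numbered 102 between PAE and CON (8.56%, against 7.37% of all regions), 53 between PAE and PF (4.45% against 4.46%) and 51 between PF and CON (4.28% against 6.46%).

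The member with the smallest p between PAE and CON was that at rank 2, chr1:180644618-180645183. The 10 CON libraries had 1212, 1286 and 1668 as lowest, median and highest height, the PF libraries 1121, 1228 and 1361, and the PAE libraries 1063, 1169 and 1296, so that the groups overlapped. The log2 difference PAE minus CON was -0.22 (SE 0.0479, limma p = 5.71e-05, adjusted p = 0.661). The difference PF minus CON was -0.19 (SE 0.0497, limma p = 0.000475, adjusted p = 0.773), and both share the CON libraries. Under median ratio scaling the PAE minus CON difference was -0.11 (limma adjusted p = 0.806) and under quantile normalization -0.04 (limma adjusted p = 0.846). The 4 highest of the 30 libraries, at 1467 or more, were CON libraries of lanes 7 and 8. Within lane 8 the mean was 1508 in CON (n = 2) and 1153 in PAE (n = 3), a log2 difference of -0.39. On lane 4 it was 1244 in CON (n = 3) and 1098 in PAE (n = 2), a log2 difference of -0.18. On lanes 5 and 6, with 1 CON library each, the log2 difference was -0.03 and -0.07. Lane 7 held no PAE and lane 4 no PF library.

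At chr2:193572107-193573469 the CON libraries lay between 19.8 and 31.1 (25.4 ± 3.65), the PF libraries between 16.9 and 27.1 (23.2 ± 3.16) and the PAE libraries between 10.7 and 29.3 (19.5 ± 5.63, all SD, n = 10). The log2 difference PAE minus CON was -0.44 (SE 0.117, limma p = 0.000718, adjusted p = 0.661). Between PF and CON, chr17:57807874-57809571 had 3.70 ± 0.839 in CON, 2.25 ± 0.743 in PF and 3.26 ± 1.03 in PAE (SD, n = 10), a log2 difference PF minus CON of -0.85 (SE 0.223, limma p = 0.000637, adjusted p = 0.773). Neither passed the adjusted threshold, and the ranges of the groups overlapped.

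Between PAE and PF the smallest p belonged to chr1:99033781-99035166, with PF libraries between 9.84 and 14.9, PAE libraries between 6.46 and 13.9 and a log2 difference of -0.32 (SE 0.109, limma p = 0.0062, adjusted p = 0.988). The next was chr1:92339847-92340269, at 5.12 ± 1.29 in CON, 5.37 ± 0.928 in PF and 3.88 ± 0.754 in PAE (SD, n = 10), a log2 difference PAE minus PF of -0.44 (SE 0.151, limma p = 0.00643, adjusted p = 0.988). This was the single member at the position of one of 1462 regions that the study listed in its supplementary tables, which were chosen on these samples and give this region no gene.

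With scaling to fragments, all 10 highest members were lower in PAE than in CON, by log2 differences of -0.22 to -0.01, but only 2 of the 10 were lower when scaled to the median ratio over the regions called in all libraries (-0.11 to 0.11). PF minus CON lay between -0.19 and -0.03 (all 10 lower) with scaling to fragments and between -0.13 and 0.03 (7 lower) under the median ratio. PAE minus PF lay between -0.05 and 0.03 (6 lower) and, under the median ratio, between -0.0003 and 0.09 (1 lower). With quantile normalization 4 of the 10 were lower in each of the 3 contrasts. Over all members, the median log2 difference PAE minus CON was -0.10, against -0.05 over all regions and -0.11 over the 11914 regions called in every library. When only those 11914 regions were fitted, 110 of 1191 members and 1215 of 11914 regions were lower in PAE at an unadjusted p under 0.05. In the fit of all regions, 94 of the 102 members at p under 0.05 were lower in PAE (7.89%, against 6.03% of all regions) and 8 higher (0.672% against 1.34%). This direction turned with the scaling: under the median ratio, the median was 0.02, and 22 members were lower (1.85% against 4.06%) and 54 higher (4.53% against 2.08%). With quantile normalization 26 were lower (2.18% against 3.26%) and 40 higher (3.36% against 2.46%). No direction over the members is therefore given for PAE against CON, nor for PF against CON, where 40 lower (3.36%, against 4.39% of all regions) and 11 higher (0.924% against 2.06%) became 21 lower (1.76% against 3.38%) and 32 higher (2.69% against 1.98%) under the median ratio.

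Height also moved with the sequencing lane. Each lane was labelled with a sequencing chip of its own, so lane and chip cannot be told apart. The median height over the members had lane medians of 4.13, 4.27, 4.41, 4.77 and 5.15 on lanes 4 to 8. At an unadjusted p under 0.05, 364 members differed between lanes (30.6%, against 13.6% of all regions), and 141 (11.8% against 8.05%) after median ratio scaling. One member (0.084%, against 0.0321% of all regions) passed the adjusted threshold, chr7:11286205-11286524, with lane medians of 13.6, 14.0, 14.7, 20.0 and 19.1 (moderated F-test in limma, adjusted p = 0.042). It did not pass under median ratio scaling, where 0 members did. When only the regions called in every library were fitted, 112 members passed (9.4%, against 7.24% of those regions). In that fit, 447 of 1191 members and 3912 of 11914 regions were at an unadjusted p under 0.05, so most of the excess over all regions was shared by regions called in every library.

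**Figure D5:**
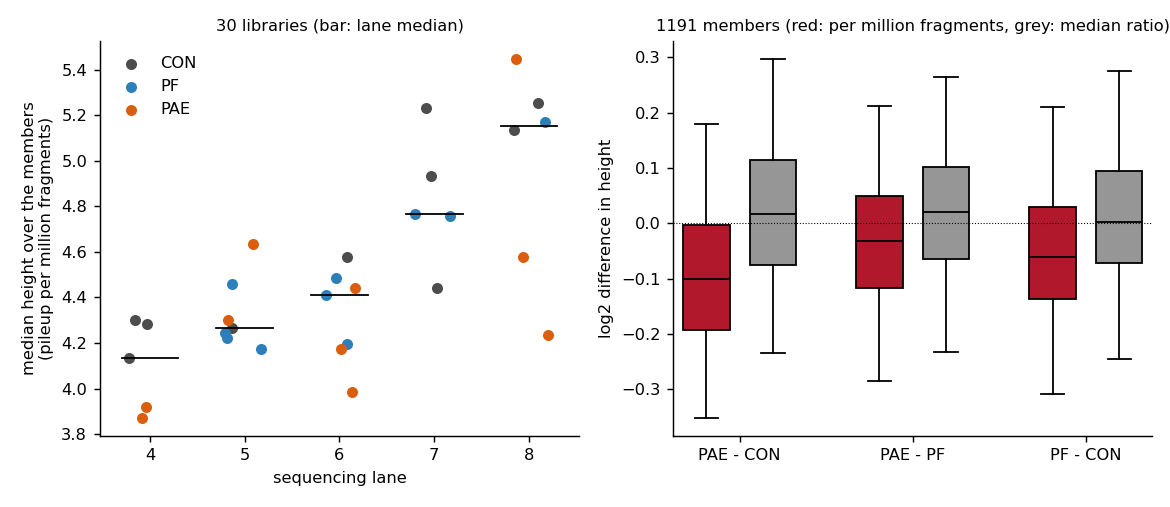
Left, median height over the members (pileup per 1000000 filtered fragments) in each library by sequencing lane, with a bar at the lane median, which climbs from 4.13 on lane 4 to 5.15 on lane 8. Right, log2 differences between groups over the 1191 members (boxes: quartiles with the median, whiskers: 5th and 95th percentile), where the median of PAE minus CON is -0.10 with scaling to fragments (red) and 0.02 under median ratio scaling (grey).

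The next members by the lane test were chr4:77451607-77453179 (adjusted p = 0.0526), chr16:22013344-22014249 (0.0539), chr9:40523982-40524524 (0.0552) and chr4:132936099-132937322 (0.0552), all from the moderated F-test in limma. The first of these had its highest lane median on lane 8 (77.7, against 47.6 on lane 4), and so did the one on chromosome 16 (45.7 against 30.6). The other 2 were highest on lanes 5 and 7, which held the 7 libraries with few peaks on chromosome Y. At chr4:132936099-132937322 those 7 libraries lay between 5.57 and 10.1 and the other 23 between 2.49 and 8.49.

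Between labelled sexes, 0 members and 0% of all regions passed the adjusted threshold, and 34 members were at an unadjusted p under 0.05 (2.85%, against 5.12% of all regions). This count rested on single libraries: it was 14 without PAE replicate 7 (labelled male of dam E2; 15598 of all regions) and 72 without CON replicate 9 (labelled male of dam C45; 18723 of all regions), and moved by over 1.5 times in 7 of the 30 refits with 1 library left out. The smallest p was at chr13:80395251-80395993, with a log2 difference female minus male of -0.54 (SE 0.175, limma p = 0.00424, adjusted p = 0.854). The next was chr19:29283475-29284235 (-0.42, SE 0.147, limma p = 0.00809). The interaction of group and labelled sex gave 0 members and 0% of all regions past the adjusted threshold and 17 members at an unadjusted p under 0.05 (1.43% against 3.84%), led by chr9:8619190-8620152 (p = 0.0156) and chr13:33320271-33320800 (p = 0.0175), both from the moderated F-test in limma. With 18 of 30 libraries against their label, these tests do not compare females with males.

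By the labels each dam gave 2 libraries, so labelled littermates could be set beside other animals of their group. The dam labels were not checked, as the sex labels could be, and the comparison holds only as far as they do. The absolute log2 difference between littermates had a median over members of 0.28, against 0.29 between animals of different dams in the same group, and was the smaller of the pair in 633 of 1191 members (53.1%). The 50 members with a CV over 40% gave 0.68 against 0.69, with littermates closer in 26. Between dams of the same group, 0 members and 0% of all regions passed the adjusted threshold, and 64 members had an unadjusted p under 0.05 (5.37% against 4.95%).

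The count depended on the regions fitted. When only the 11914 regions called in every library entered the fit, 29 members passed the test between dams of the same group (2.43%, against 0.269% of those regions, 32 in all). They had CVs of 31.8% to 75.5%, lay on 7 chromosomes, and 4 of them shared the smallest adjusted p of 0.000253 (moderated F-test in limma): chr14:46644789-46645354, chr14:46329451-46329895, chr1:11966604-11967191 and chr4:176617318-176617821. Fewer regions were tested and the prior variance was estimated on these regions alone. At chr14:46644789-46645354 the unadjusted p of the moderated F-test was 0.000621 in the fit of all regions and 8.5e-08 in this fit. Whether these calls follow the dams or the high spread of the members was not tested. This fit adjusts for labelled sex and lane, which the littermate differences above do not, and a call here does not say that littermates had similar heights. The 29 included chr18:71139123-71140041 (adjusted p = 0.0105), where 9 of 15 dams were split between the high and the low range.

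At chr4:176617318-176617821 both littermates were high in dams C44 (8.57 and 11.3), PF26 (14.8 and 14.7) and PF28 (17.7 and 11.6). In dams E1, C46 and E3 1 littermate was high (13.0, 9.82 and 11.1) and the other low. In the other 9 dams both lay between 1.99 and 4.91. Of these 9 high libraries, 7 were sequenced on lanes 5 and 7 and 2 on lane 4. The 7 libraries with few peaks on chromosome Y lay between 2.77 and 17.7 (median 11.3) and the other 23 between 1.99 and 14.8 (median 3.44). At chr14:46644789-46645354 the littermates of dam C45 had 19.1 and 270, the extremes of the CON group.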

How the data were processed

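Per the labels and the study's methods, the authors aligned paired reads to Rn6 with BWA, kept only non-duplicate pairs of mapping quality 10 or higher (SAMtools), and called peaks per library with MACS2 (2.1.4 in the file headers, no control, q-value threshold 0.05). The deposited values per peak were the pileup (a signal of overlapping fragments), the fold enrichment (a ratio) and the −log10 q-value. Peaks on chromosomes 1 to 20 were merged (1 bp) and each pileup divided by the library's filtered fragments and multiplied by 1000000. Values without a peak or below it were set to 0.438, the highest of the libraries' lowest values. The 352026 regions with a peak in at least 3 libraries were fitted with limma 3.58.1 (R 4.3.3, trended prior variance, log2 height, group, labelled sex and lane). The fits used all 30 libraries, and the Benjamini-Hochberg threshold was 0.05. The script was tested on simulated data. Because the files give no input library and the fragments carry no molecular identifiers, spread between libraries was the only error used.

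Members and lists were chosen with earlier results of these data known. Named regions were the 10 highest members, those beside the threshold, the longest, the most and least variable, the largest groups, those with the smallest p per test and the one listed by the study. The other variable, covarying and chromosome Y related members were named after their values were seen. Same-dam libraries (1 labelled female, 1 labelled male) had an estimated correlation of -0.0251 over the members, and dam as a block changed no call. Alternatives covered scaling, lane and sex terms, peak q-values, regions fitted and each library left out. No library lacked a group.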

Additional observations from a re-analysis of the deposited data

Results flagged for a closer look

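In 117 groups of 10 libraries at the named members, 21 had a highest library whose gap to its nearest neighbour was, as a share of the group's range, above the 95% critical value of Dixon's test. The nominal rate of 1 in 20 groups does not apply here. The screened members included the 10 with the highest CV over these same libraries, and heights were not log-transformed. The 21 flags are therefore a description, and members of one set repeat the same libraries.

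The labelled female of dam PF27, sequenced on lane 8, was the highest PF library at chr3:41544-42155 (554.9), chr7:22328384-22328841 (433.0), chr1:180852221-180852935 (395.4), chr1:180703345-180703834 (327.8), chr4:77451607-77453179 (75.2) and chr20:40884557-40884990 (28.2). The labelled female of dam E2, also on lane 8, was the highest PAE library at chr3:41544-42155 (538.9), chr4:77451607-77453179 (86.1) and chr3:153060648-153061529 (7.49).

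Members of the largest covarying set, on chromosomes 1, 5, 6 and 14, stood out through 2 libraries. The labelled male of dam C45 was the highest CON library at chr1:11906564-11906988 (251.4), chr1:11909787-11912434 (238.1), chr14:46565122-46565961 (220.2), chr5:91132055-91132639 (140.1) and chr14:46549205-46549698 (70.2). The labelled female of dam E6 was the highest PAE library at the same 5 members, with 183.8, 170.2, 156.3, 97.2 and 46.8, and at chr14:46329451-46329895 (77.1).

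At chr9:40523982-40524524 the labelled female of dam E1 had 16.8, the highest PAE value. It was the one PAE library with few peaks on chromosome Y. The part of depth, lane and copy number in these values was not tested.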

How the results depend on the processing

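Leaving out 1 library at a time, all 30 refits gave 0 members between groups, between labelled sexes, in the interaction and between dams, and the other alternatives did so too except where named here. The count of members that differed between lanes was 22 without the labelled sex term (of 1041 among all 352026 regions), 0 under median ratio scaling, 0 under quantile normalization and 112 when only the regions called in every library were fitted. It ran from 0 to 63 with 1 library left out. It was 0 in 15 of these 30 refits and above 1 in 10, with the highest counts without PAE replicate 7 (63) and PAE replicate 3 (56), when the count over all 352026 regions was 6297 and 8615, against 113 with all libraries. The lane call at chr7:11286205-11286524 was lost in 20 of 36 alternatives. Between dams the count was 29 when only the regions called in every library were fitted. With the replicate block (dam as a random effect), members called remained 0 for each group contrast, labelled sex and interaction, and 1 for lane.

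An alternative chosen after seeing the data kept the 12 libraries whose sex chromosomes matched the label, 2 of them labelled female. There, 5 of 1191 members passed between labelled sexes, against 7839 of all 352026 regions, and the difference at chr13:80395251-80395993 turned to 0.60. The labelled females (dams E1 and PF28, none CON) were on lane 5, where the labelled male of dam E6 was the only other of these libraries. With lane in the fit, the difference rested on that lane, and no difference between females and males is read from it. Taking the top 5% or top 20% gave 596 or 2383 members, requiring peaks to cover at least 50% of a region gave 327, and leaving out 1 library gave 1198 to 1239. The median log2 difference over members for PAE minus PF moved from -0.03 to 0.02 under median ratio scaling and to 0.01 under quantile normalization, and ran from -0.06 to -0.003 with 1 library left out. At an unadjusted p under 0.05, the members between PAE and PF numbered 34 instead of 53 without PAE replicate 5 (all regions: 15431 instead of 15684). Those between PF and CON numbered 77 instead of 51 without CON replicate 8 (all regions: 27016 instead of 22734). Those of the interaction numbered 36 instead of 17 without PAE replicate 7 (all regions: 15635 instead of 13513). Depth sets the counting error of the lowest members, whose raw pileup was as low as 6 fragments.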
